A study of Homo sapiens with 97 samples.

Results

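A full timing ramp is a stretch of chromosome over which replication passes in order through every class between early and late. Ramps were found in the 4 lists of early, mid-early, mid-late and late intervals of U2OS cells, on chromosomes 1 to 22 and X. Touching intervals of the same class were joined into domains. Each run of 4 consecutive domains that read early, mid-early, mid-late, late, or the reverse, was kept, and the ramp is its mid-early and mid-late part. This gave 294 ramps among 13611 timing domains. Together the ramps covered 136 Mb, or 4.60% of the 2953 Mb listed. The rule allows ramps of at most 2 Mb, but no run was longer, and the longest measured 1218 kb. The ramps were chosen by the authors' timing classes and their order, and by no NS-seq or MRE11 value, so their classes, length and flanks are given as descriptions. The lists hold classes and no timing values, so the slope within a class was not measured.

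Human chromosomes replicate as domains. Early domains lie mostly in open, gene-rich chromatin where many origins fire near the start of S phase, and late domains lie mostly in compact, gene-poor chromatin. Between them are timing transition regions, where replication time changes steadily along the DNA. Such regions are known for few efficient origins, and forks that start at the early border can travel through them for long distances.

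The study as a whole followed replication around DNA double-strand breaks in 97 samples. The ramps rest on 6 deposited region lists of timing, NS-seq peaks and MRE11 sites, and all give positions on hg19. The MRE11 list comes from HCT116 colorectal carcinoma cells (AID-RAD21, LIG4 KO). They lack LIG4, which ligates broken ends, and their RAD21, part of the cohesin ring, carries a degron that responds to auxin. These cells had received 4-hydroxytamoxifen (4OHT) and no auxin. The labels' protocols give 300 nM 4OHT for 4 h as the step that induces breaks. The list holds the sites of AsiSI, a restriction enzyme, that overlapped the break resection nuclease MRE11. By U2OS timing class 62 of them were early, 64 mid-early or mid-late and 3 late. The NS-seq list comes from AsiSI-U2OS osteosarcoma cells and was deposited under an untreated input library. Nascent strand sequencing (NS-seq) reads the short strands that mark where replication has just begun. The list carries the word merged in its name and does not say what was merged, so its peaks could not be assigned to 4OHT-treated or control cells. It held 3724 peaks on the chromosomes used, each 1000 bp wide. The timing lists come from untreated wild-type U2OS cells without AsiSI, from merged G1 and S phase samples. The comparisons therefore cross cell lines for the break sites and derivatives of one line for the peaks, and the labels do not say whether a line is a single clone.

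Each kind of list exists once, with no replicate, and read depth behind a region is unknown. No p-value is given for that reason. Intervals are exact Poisson or exact Clopper-Pearson intervals at 95%. They cover counting error only and treat peaks as independent, although peaks cluster.

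Ramps varied widely in length. The median ramp was 446 kb long, the quartiles were 276 and 622 kb, and the range was 66.8 to 1218 kb. There were 4 ramps of 1 Mb or more and 10 under 100 kb, and 125 reached 500 kb. The mean was 462 ± 237 kb (SD, 294 ramps). The deposited intervals inside ramps had a median length of 76.8 kb, against 63.1 kb for all mid-early and mid-late intervals. The median ramp was built from 4 intervals, and 64 ramps consisted of 1 interval of each class, so in these the class borders are the only structure resolved.

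Both directions were about equally common, which is partly built in. Along a chromosome, changes from early to late and from late to early must alternate. The early side lay at the lower coordinate in 145 ramps (49.3%, Clopper-Pearson interval 43.5 to 55.2%) and at the higher coordinate in 149. The interval treats directions as independent, which this alternation does not allow. Ramps with the early side at the lower coordinate had a median of 453 kb, and those with it at the higher coordinate 442 kb. The mid-early class made up 29.6% of the summed length in the ramps with the early side at the lower coordinate and 31.9% in the others. These differences between directions are small beside the spread between ramps.

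**Figure D1:**
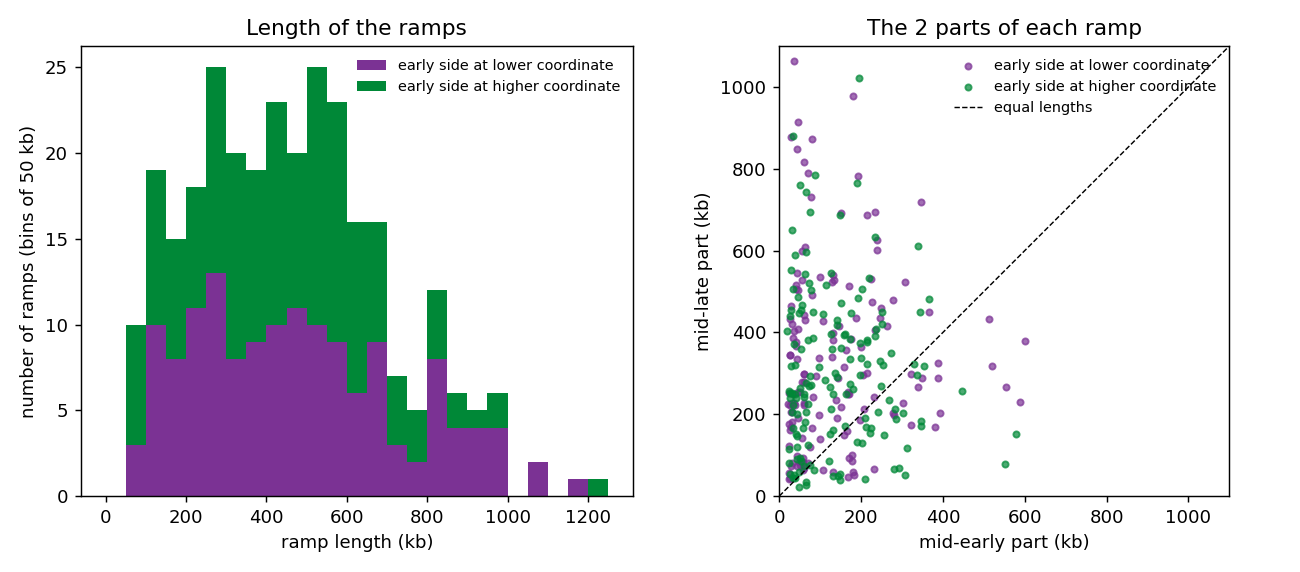
Left, number of ramps by length in bins of 50 kb, stacked by direction. Right, mid-early against mid-late length of each of the 294 ramps, in kb, with a dashed line of equal lengths. Most points (232) lie above the line, with the mid-late part the longer, in both directions.

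Ramps were unequal in their 2 classes. The mid-late part took 69.3% of the summed ramp length and the mid-early part 30.7%. In all mid-early and mid-late sequence the mid-early share was 45.8%, and it was 41.8% without the 20 mid-early intervals over 1 Mb, none of which lies in a ramp. Per ramp the median mid-early share was 28.9%, with quartiles of 15.2 and 45.0% and a range of 3.25 to 87.4%. The mid-late part was the longer in 232 ramps (78.9%) and the mid-early part in 62. The median mid-early part was 110 kb long, against 81.0 kb for mid-early domains elsewhere. The median mid-late part was 281 kb long, against 114 kb for mid-late domains elsewhere. Both parts were thus longer than their class elsewhere, and against all such domains the mid-late part by the larger factor. Domains with the same neighbours outside ramps had medians of 70.7 kb (mid-early, between early and mid-late) and 191 kb (mid-late, between mid-early and late). Against these both parts were still longer, but the mid-late part not by the larger factor. Across ramps the lengths of the parts were nearly unrelated (Pearson's r = -0.00, Spearman's rho = 0.08, 294 ramps). In 78 ramps the mid-early part was under 50 kb, while the mid-late part was that short in 11.

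All 23 chromosomes carried at least 1 ramp, but not in proportion to their length. Chromosome 2 had the most, 26 ramps, followed by chromosome 3 with 25 and chromosomes 1 and 5 with 23 each. Per 100 Mb of listed sequence, chromosome 18 had 17.9 ramps and chromosome 10 had 13.3, against 9.96 over all chromosomes. Chromosomes 19, 21 and 22 had a single ramp each, and chromosome 17 had 3. Chromosome 19 had 1.69 ramps per 100 Mb, chromosome 21 had 2.58, chromosome 22 had 2.83 and chromosome 17 had 3.69. Chromosomes 17, 22 and 19 had the highest early shares of all, at 54.8, 51.9 and 44.1% of their sequence, while chromosome 21 had 22.9%. Late-rich chromosomes X and 13 were also poor in ramps, with 5.80 and 5.20 per 100 Mb. Across the 23 chromosomes, ramps per 100 Mb had a Pearson's r of -0.44 with the early share (Spearman's rho = -0.23) and 0.42 with the late share (rho = 0.46). These are descriptions over chromosomes of a single set of lists. Directions differed by at most 1 ramp on 16 chromosomes, and by at most 4 on any, and this near balance is partly built in, as stated above. On the 19 chromosomes with 5 or more ramps, the median length ran from 325 kb on chromosome X to 606 kb on chromosome 14.

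**Figure D2:**
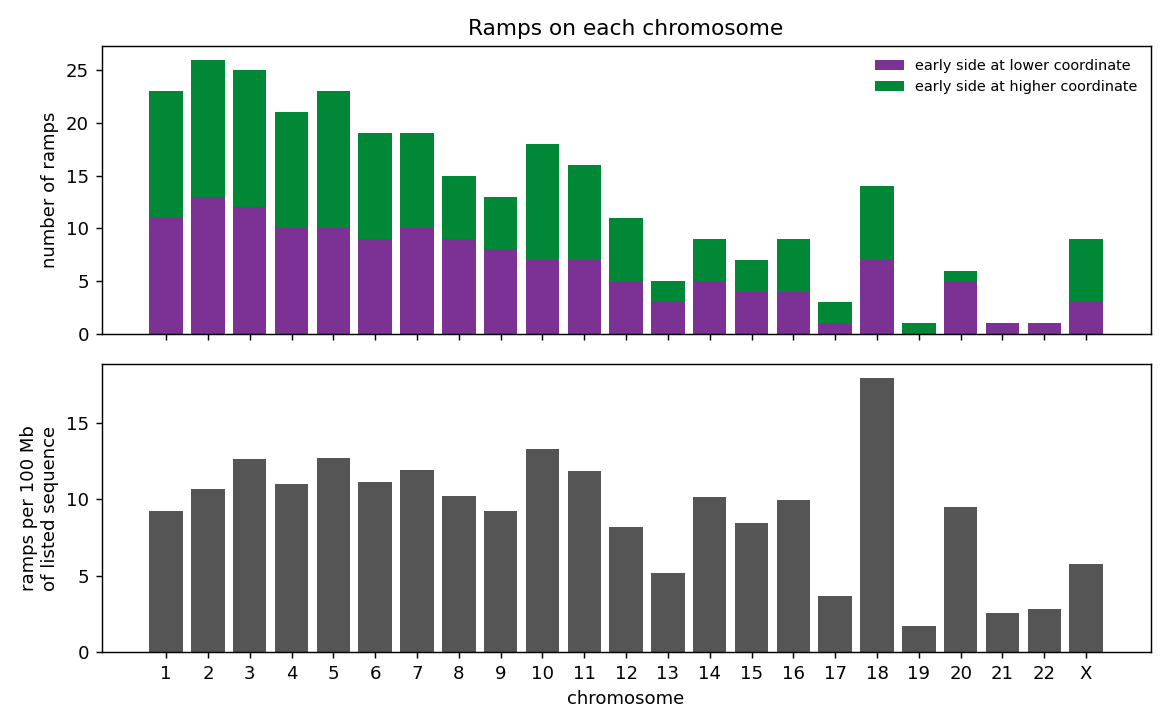
Number of ramps on each chromosome, stacked by direction (top), and ramps per 100 Mb of listed sequence (bottom). Chromosome 18 stands highest in the lower panel at 17.9, and chromosomes 17, 19, 21 and 22 lie between 1.69 and 3.69.

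Full ramps were a minority of the ways in which the lists pass between early and late. There were 714 passages in which an early and a late domain followed each other with no other early or late domain between them. Of these, 294 (41.2%) were full ramps. A further 400 (56.0%) went through 3 or more middle domains, stepping back at least once, and 205 of them had exactly 4 middle domains. There were 19 passages with fewer than 2 middle domains and 1 with both in another order. Full ramps were shorter, with a median of 446 kb, against 785 kb for the stepped passages and 639 kb for those with exactly 4 middle domains. Ramps hold 2 middle domains by the rule and these passages hold more, so a shorter length follows in part from the rule. The mid-early class made up 30.7% of full ramps and 39.2% of stepped passages.

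The domains at either end of a ramp were mostly short. The early domain next to the ramp had a median length of 112 kb over 283 different domains, against 156 kb for early domains that touch no ramp. The late domain had a median of 97.5 kb over 280 domains, against 143 kb elsewhere. In 134 ramps the early domain was under 100 kb, and in 152 the late domain was. Ramps between domains of 500 kb or longer on both sides numbered 7, and 211 ramps had both flanks under 500 kb. The 7 ramps had a median of 501 kb and contained 0 NS-seq peaks (exact Poisson upper bound 0.987 per Mb). They lay on chromosomes 1, 2, 5, 7, 10 and 20, with 2 on chromosome 7. The ramp from 84279601 to 84691400 on chromosome 2 opened onto the largest late domain at any ramp, 7837 kb long, which carries another ramp at its other end. With one flank of 500 kb or longer the median length was 536 kb (large early flank, 30 ramps) or 578 kb (large late flank, 46 ramps), against 371 kb with both flanks shorter. Of the 423 early domains of 500 kb or longer, 37 (8.75%) touched a ramp, and of the 341 late domains of that size, 49 (14.4%) did.

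Aligned on the border between mid-early and mid-late, the surrounding sequence kept its timing well beyond the ramps. Between 500 kb and 1 Mb on the early side, 49.7% of sequence was early, 25.8% mid-early, 21.2% mid-late and 3.40% late. At the same distance on the late side, 49.7% was late, 38.1% mid-late, 9.19% mid-early and 3.03% early. The share of the outermost class was equal on both sides at this distance, while the shares of the middle classes differed. In the first 50 kb on the early side 8.08% of sequence was already early, and in the first 50 kb on the late side 0.794% was late. At 250 to 300 kb, 42.6% was early on the early side and 25.3% was late on the late side. NS-seq peaks stood at 0.942 per Mb over the 1 Mb on the early side (interval 0.834 to 1.06, 274 peaks) and at 0.798 over the 1 Mb on the late side (0.699 to 0.907, 234 peaks). In the outer 500 kb the values were 0.982 and 0.567 per Mb. Where ramps lie close together, the same peak is counted at each of them.

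**Figure D3:**
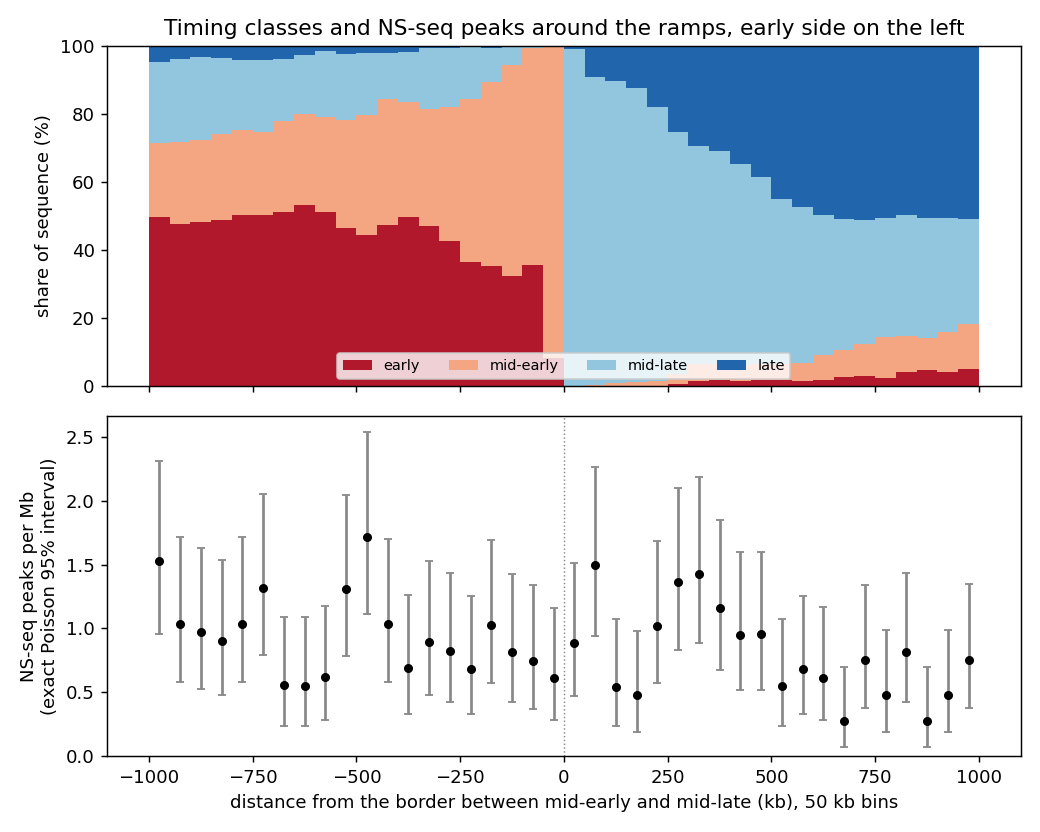
Share of sequence in each timing class (top, %) and NS-seq peaks per Mb (bottom, points with exact Poisson intervals) in 50 kb bins around the border between mid-early and mid-late, over 294 ramps turned so that the early side is on the left. Classes next to the border follow from the rule. Peak density stays between 0.273 and 1.72 per Mb and shows no step at the border.

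NS-seq peaks were sparse in ramps. The ramps held 103 of 3724 peaks (2.77%, Clopper-Pearson interval 2.26 to 3.34%) in 4.60% of the sequence. That is 0.758 peaks per Mb in ramps (interval 0.619 to 0.919), against 1.52 in mid-early and mid-late sequence elsewhere (1.45 to 1.59). The middle domains of stepped passages had 1.15 per Mb (1.05 to 1.26). Passages with exactly 4 middle domains had 0.889 (0.742 to 1.06), an interval that overlaps that of ramps. Their mid-early sequence had 0.963 and their mid-late sequence 0.849 per Mb, so low density was not particular to full ramps. No peak was found in 243 ramps, and 51 (17.3%, interval 13.2 to 22.2%) held 1 or more. Of all passages with at least 2 middle domains, full ramps included, 23.9% held a peak, and many of these are longer than ramps. The list holds no peak scoring below 10.0, so a ramp without a peak may still contain weaker origins. Among the 51 ramps, 29 held a single peak, 10 held 2, 6 held 3, and 6 held 4 or more. Those last 6 ramps held 36 of the 103 peaks. Ramps with a peak had a median length of 557 kb and ramps without one 431 kb, and the longest ramp without a peak spanned 1158 kb.

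The mid-early part of ramps held fewer peaks per Mb than mid-early sequence elsewhere. It had 0.887 peaks per Mb (interval 0.624 to 1.22, 37 peaks), against 1.80 in mid-early sequence elsewhere (1.69 to 1.91, 1108 peaks), a ratio of 0.49 (0.345 to 0.684). A peak lay in 20 of the 294 mid-early parts (6.80%), against 12.4% of all mid-early domains, although the ramp parts are the longer. Without the intervals over 1 Mb, which held 0 peaks and lie outside ramps, mid-early sequence elsewhere had 2.15 peaks per Mb. Mid-early domains with the same neighbours, early on one side and mid-late on the other, had 1.95 peaks per Mb outside ramps (1.75 to 2.16, 364 peaks). Ramp mid-early sequence was closer to mid-early islands between mid-late domains (0.883 per Mb) than to mid-early dips between early domains (3.04 per Mb).

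The mid-late part had 0.701 peaks per Mb (0.542 to 0.892, 66 peaks), against 1.26 in mid-late sequence elsewhere (1.18 to 1.35, 864 peaks), a ratio of 0.55 (0.425 to 0.713). A peak lay in 39 of 294 mid-late parts (13.3%), against 11.3% of all mid-late domains, and these parts are more than 2 times as long at the median. Against mid-late domains with the same neighbours, mid-early and late, the difference was small: 0.701 in ramps and 0.832 elsewhere (0.709 to 0.970, 163 peaks). With domains under 50 kb absorbed into the domain before them, the ratios of ramps to other sequence were 0.31 for mid-early and 0.33 for mid-late. Mid-late dips between mid-early domains had 1.96 per Mb and mid-late islands between late domains 0.534.

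Peak density in these lists is far higher near chromosome ends, and the mid-late value moved with that setting. Within 5 Mb of a chromosome end, ramps had 3.10 peaks per Mb (2.09 to 4.42, 24 ramps), against 7.72 in other mid-early and mid-late sequence. Farther in, ramps had 0.578 (0.453 to 0.727, 270 ramps), against 0.922 elsewhere (0.868 to 0.979). In this interior sequence the mid-late parts had 0.598 peaks per Mb (0.448 to 0.783, 53 peaks), against 0.649 in mid-late sequence elsewhere (0.587 to 0.716), a ratio of 0.92 (0.679 to 1.23). The interior mid-early parts had 0.532 (0.325 to 0.821, 20 peaks), against 1.22 elsewhere (1.13 to 1.32), a ratio of 0.44 (0.264 to 0.678). So away from the ends the mid-late shortfall was not detectable at this number of peaks, while the mid-early shortfall was as large as over all sequence. Against interior domains with the same neighbours the ratios were 0.41 (0.245 to 0.647) for mid-early and 1.27 (0.884 to 1.81) for mid-late parts. The 5 Mb limit was chosen after the ramps richest in peaks were seen to lie near ends.

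**Figure D4:**
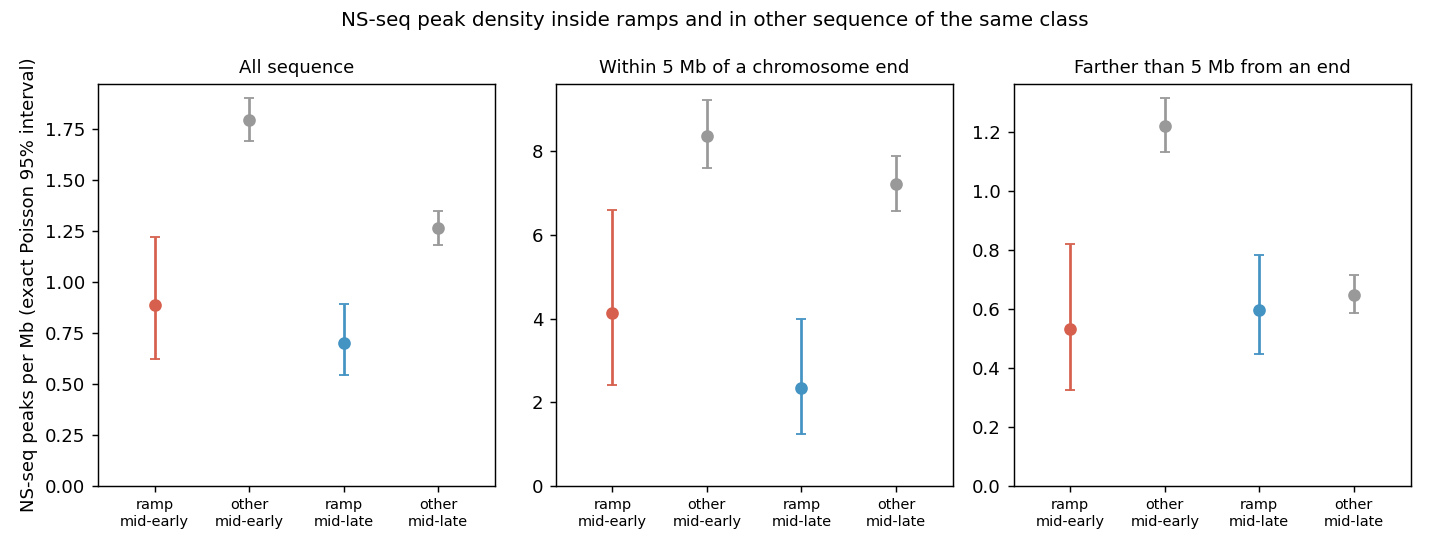
NS-seq peaks per Mb with exact Poisson 95% intervals in mid-early and mid-late sequence inside ramps (coloured) and elsewhere (grey), over all sequence, within 5 Mb of chromosome ends, and farther in. The vertical scales differ between panels. In interior sequence the ramp mid-early value of 0.532 lies below its counterpart of 1.22, while the mid-late values are 0.598 and 0.649.

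Chromosomes differ in peak density, so each ramp was also set against its own chromosome. If every ramp had the density of its own class on its own chromosome outside ramps, 178 peaks would be counted, and 103 were, a ratio of 0.58 (0.471 to 0.700). The ratio was 0.60 for mid-early parts (37 observed, 61.6 expected) and 0.57 for mid-late parts (66 observed, 117 expected). These expected counts use whole chromosomes, so the higher density near chromosome ends remains in them. In interior sequence the mid-late ratio to other mid-late sequence was 0.92, as given above. Without the mid-early intervals over 1 Mb, the mid-early ratio was 0.51 (0.356 to 0.697, 73.2 expected), below that of mid-late parts. For both classes it was then 0.54 (0.443 to 0.658). Ramps held fewer peaks than this on 18 chromosomes and more on 5. On chromosomes 12, 19, 20 and 21 they held 0, against 7.44, 1.31, 6.36 and 0.270 expected, so the 0 on chromosomes 19 and 21 says little. Chromosome 10 had the largest count, 23 peaks in 18 ramps, against 15.1 expected. Without chromosome 10 the mid-early ratio to other mid-early sequence was 0.37, the lowest when any chromosome was left out, and without chromosome 7 it was 0.56, the highest.

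Along the ramp peaks showed no steady trend. From the early end to the late end, 5 successive steps of equal length, 1 to 5, held 14, 31, 21, 23 and 14 peaks, or 0.515, 1.14, 0.773, 0.846 and 0.515 per Mb. Step 2 was highest and both end steps lowest, and the intervals of neighbouring steps overlapped (0.282 to 0.864 for either end step, 0.775 to 1.62 for step 2). When the 6 ramps with 4 or more peaks were left out, the steps held 11, 17, 16, 14 and 9 peaks. Ramp mid-early sequence had 1.27 times the density of ramp mid-late sequence (0.822 to 1.92), an interval that includes 1, while outside ramps the ratio was 1.42 (1.30 to 1.56). In interior sequence the ramp ratio was 0.89 (0.503 to 1.51), against 1.88 outside ramps (1.66 to 2.13).

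The share of borders near a peak was lower in ramps for the early and middle borders, and not for the late border. A peak centre lay within 50 kb of the early border in 15 of 294 ramps (5.10%, interval 2.88 to 8.28%), against 14.9% of borders between early and mid-early domains elsewhere (13.9 to 15.9%, 4722 borders). For the border between mid-early and mid-late the share was 4.76% in ramps (2.63 to 7.86%), against 11.03% elsewhere (10.1 to 11.98%). For the border between mid-late and late it was 5.44% in ramps (3.14 to 8.69%), against 4.29% elsewhere (3.62 to 5.04%), and these intervals overlap. The median distance to the nearest peak was 1040 kb in ramps and 488 kb elsewhere for the early border, and 1155 kb in ramps and 864 kb elsewhere for the border between mid-early and mid-late. For the border between mid-late and late it went the other way, 1335 kb in ramps and 1965 kb elsewhere.

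Peaks in ramps scored like other peaks. The score is the authors' own value per peak, on no stated scale. It had a median of 11.8 over the 103 ramp peaks (range 10.0 to 20.9) and of 11.8 over all 3724. Mid-early peaks scored 12.7 ± 2.24 in ramps and 12.5 ± 2.46 elsewhere (mean ± SD over 37 and 1108 peaks), and mid-late peaks 12.5 ± 2.42 in ramps and 12.9 ± 2.64 elsewhere (66 and 864 peaks). These differences are small beside the spread between peaks.

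The ramp with most peaks lay at the end of chromosome 10, 134791201 to 135222100, 0.313 Mb from the last listed base. It held 12 peaks in 431 kb, 9 of them in a mid-early part of 312 kb. Its early domain of 177 kb faces the chromosome end. Next came a ramp of 240 kb near the end of chromosome 2 (241254101 to 241494400) and one of 194 kb near the start of chromosome 4 (888801 to 1082700), with 5 peaks each. The first had 2 peaks in its mid-early and 3 in its mid-late part, and the second 3 and 2. The other ramps with 5 peaks were interior, on chromosome 10 (87661701 to 88339500, 678 kb) and chromosome 17 (31087101 to 31770800, 684 kb). In both, all 5 peaks lay in the mid-late part. On chromosome 17 the first 4 of them sat 231, 235, 266 and 287 kb from the early end, and the last sat at 654 kb. Those first 4 were 60.5 to 116 kb past the class border. On chromosome 10 they lay 214, 247, 264, 314 and 592 kb from the early end. The one other ramp with 4 or more peaks, on chromosome 22 (47313401 to 47768200), was named after its values were seen. It lay 3.54 Mb from the chromosome end and held 4 peaks, all in its mid-late part.

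The longest ramps were mostly mid-late. The longest, on chromosome 5 from 92324001 to 93541600, had 195 kb of mid-early and 1023 kb of mid-late sequence and held 1 peak. The ramp of 1158 kb on chromosome 12 (28152701 to 29311100) was 84.5% mid-late and held 0 peaks. The ramp of 1099 kb on chromosome 4 (84722101 to 85821200) was 96.6% mid-late, with a mid-early part of 36.9 kb, and also held 0 peaks. The ramp of 1066 kb on chromosome 18 (875601 to 1941500) lay within 1 Mb of the chromosome start, was 67.5% mid-late and held 0 peaks. Last of the 5 came a ramp of 979 kb on chromosome 15 (91374901 to 92353700), and it was 61.3% mid-early and held 1 peak, in its mid-late part. Its late domain, 138 kb long, contains a break site.

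The 5 shortest ramps were single intervals of each class and held 0 peaks. They lay on chromosome 7 at 149913201 to 149980000 (66.8 kb) and 135498301 to 135576000 (77.7 kb), on chromosome 4 at 49047701 to 49118000 (70.3 kb), on chromosome X at 109158001 to 109228900 (70.9 kb) and on chromosome 14 at 88735201 to 88814800 (79.6 kb). Their parts, 21.5 to 53.2 kb long, were all under the median of 63.1 kb for mid-early and mid-late intervals. Their late domains were 32.4 to 195 kb long.

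**Figure D5:**
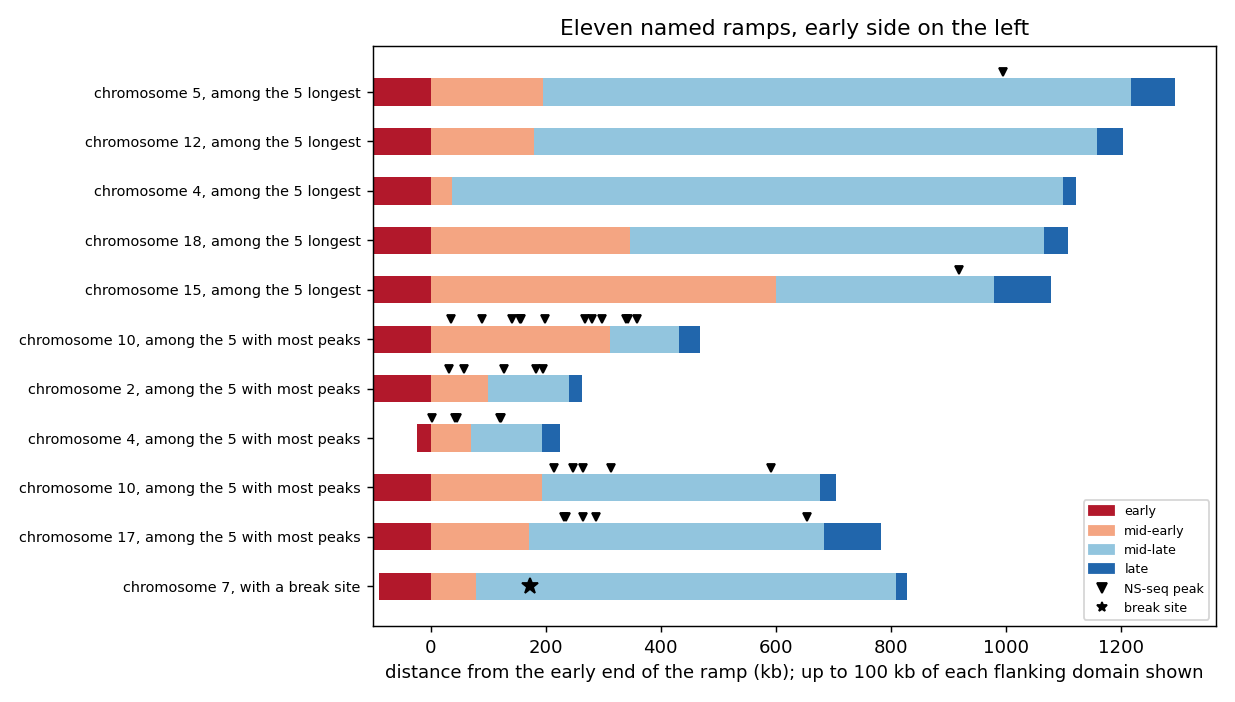
The 5 longest ramps, the 5 ramps with most NS-seq peaks and the ramp with a break site, drawn to scale by distance from the early end in kb, with up to 100 kb of each flanking domain. Triangles mark NS-seq peaks and the star the break site. Peaks stand in both parts of the ramps of 431, 240 and 194 kb, and in the mid-late part of those of 678 and 684 kb.

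A single break site fell in a ramp, and 6 did when timing domains under 50 kb were absorbed into the domain before them. That setting gave 227 ramps with a median of 622 kb, and their share of sequence was not computed. Whether sites were sparse in ramps under that setting is therefore not known. With the domains as listed, of all MRE11-AsiSI sites on the list, 1 (0.775%, Clopper-Pearson interval 0.0196 to 4.24%) lay in a ramp, while ramps make up 4.60% of listed sequence. Among the 64 sites in mid-early or mid-late sequence, 1 lay in a ramp (1.56%, interval 0.0396 to 8.40%), while ramps make up 9.46% of that sequence. Over all mid-early and mid-late domains, 0.693% held a site. The site is 107643770 to 107643777 on chromosome 7. It lies in a ramp of 809 kb (107470801 to 108279500), 173 kb from the early end, in a mid-late part of 730 kb. The nearest NS-seq peak was 1485 kb away, and the ramp held 0 peaks.

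Sites in the flanking domains and at set distances from ramps were also counted. The early domains next to ramps held 2 of the 62 early sites (3.23%, interval 0.393 to 11.2%) in 10.5% of early sequence. They are 37360268 to 37360275 on chromosome 20, 108 kb outside the early end of a ramp, and 85822593 to 85822600 on chromosome 2. The late domains next to ramps held 1 of the 3 late sites in 13.8% of late sequence. It is 92396938 to 92396945 on chromosome 15, 43.2 kb beyond the late end of a ramp. In all, 2 sites lay in or within 100 kb of a ramp, 8 within 500 kb and 15 within 1 Mb, and the median distance to the nearest ramp was 4644 kb. The share of listed sequence within these distances was not computed, so the counts cannot be called few or many. The break list comes from HCT116 cells and the ramps from U2OS cells, and the AsiSI motifs outside the list were not analysed here.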

How the data were processed

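All 6 files are region lists as deposited by the authors. Per the submitters' processing notes, positions are on hg19 and MACS2 was used, with no version or role. The labels do not state the aligner, the filters, the pooling or how timing was divided into classes. The score of each NS-seq peak is the value the authors deposited. Timing intervals end at multiples of 100 bp and had 0 gaps within a chromosome. Joining, counting and intervals were computed with Python 3.11.15, pandas 2.3.3, numpy 2.4.6 and scipy 1.17.1. A peak or site was placed by its midpoint, and 26 peaks on other chromosomes were left out. The ramp finder and density ratio were tested on simulated data. Ramps named are the 5 longest, the 5 shortest, the 5 with most peaks and any with a break site. Members, lists and comparisons were chosen with earlier results of these data known. Read depth is unknown. Sequence and gene annotation of hg19 were not used here, so no gene or sequence is assigned to a ramp.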

Additional observations from a re-analysis of the deposited data

How the results depend on the processing

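Over 7 results, 54 alternatives were computed, 46 planned and 8 added after seeing the data, and 46 stayed within the limits of the reported value (its 95% interval, or a factor of 1.5 for counts). Absorbing domains under 50 kb into the domain before them gave 227 ramps with a median of 622 kb (reported 446 kb) and a mid-early share of 35.3% (28.9%). It lowered the density ratios of ramps to other sequence to 0.31 for mid-early (0.49) and 0.33 for mid-late (0.55), and it put 6 break sites in ramps instead of 1. Leaving out regions within 5 Mb of chromosome ends gave 0.92 for mid-late and turned ramp mid-early over ramp mid-late, reported as 1.27, to 0.89. Comparing only domains with the same neighbours gave 0.84 for mid-late. The causes of these shifts were not tested. Absorbing domains under 20 kb, removing the length limit, or counting peaks by overlap changed none of the results recomputed by more than these limits. Removing the length limit could change nothing, since no run exceeded it, and only 37 domains were under 20 kb. The alternatives that stayed within the limits include these settings. No paired analysis was possible because each list exists once, with no replicate to pair or to leave out.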

Other observations

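Some domains had a ramp on both sides. Of the 280 late domains next to a ramp, 14 did, with a median length of 86.1 kb and a range of 23.8 to 7837 kb. Of the 283 early domains next to a ramp, 11 did, with a median of 55.5 kb. Ramps touched 15.7% of all 1781 late domains and 10.9% of all 2591 early domains. Whether pairing departed from what these shares would give was not tested. Neighbouring ramps on a chromosome pointed in opposite directions in 172 of 271 cases and in the same direction in 99. Passages between early and late must alternate in direction, so ramps with no other passage between them are always opposite. An excess of opposite neighbours is therefore partly built in. The median gap between neighbours was 5.92 Mb (quartiles 2.03 and 11.7 Mb), 39 gaps were under 1 Mb, and the longest was 65.7 Mb.

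Pooled over sizes, the domains that flank ramps differed from others of their class in opposite directions. For late domains the difference did not hold at each size. Early domains next to ramps had 1.03 NS-seq peaks per Mb (interval 0.820 to 1.28, 83 peaks), against 1.93 in early domains elsewhere (1.83 to 2.03). They were the sparser at each size: 0.297 against 1.65 per Mb under 100 kb, 0.916 against 2.06 from 100 to 500 kb, and 1.18 against 1.86 at 500 kb or longer. The value of 0.297 rests on 2 peaks. Of their 83 peaks, 18 lay in a single domain on chromosome 7 (2619201 to 3599000). Late domains next to ramps had 0.475 peaks per Mb (0.351 to 0.627, 49 peaks), against 0.300 in late domains elsewhere (0.259 to 0.345). By size the values were 1.27 against 0.967 under 100 kb, 1.54 against 0.536 from 100 to 500 kb, and 0.166 against 0.186 at 500 kb or longer. The intervals overlapped under 100 kb (0.609 to 2.33 and 0.648 to 1.39) and at 500 kb or longer (0.0882 to 0.283 and 0.149 to 0.229). In the middle size, 8 of the 26 peaks lay in a single domain on chromosome 8 (140559901 to 140968500) and 5 in one on chromosome 4 (49118001 to 49313400). These differences were not tested, and domains near chromosome ends were not set apart.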
